A study of Mus musculus with 12 samples.

Results

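A set of 642 gene bodies was rich in 5-hydroxymethylcytosine (5hmC) in adult mouse liver. A body is the stretch of a gene, exons and introns, that the tables place directly beside a promoter window of 4000 bp. It need not be the whole transcribed stretch, since 9 genes had no body of positive length. The set took bodies of at least 5000 bp with at least 2 FPKM of 5hmC in both liver libraries at 8 weeks (W8). FPKM is a count of sequenced fragments scaled to the length of the body and to the depth of the library. The set was 5.28% of the 12169 bodies of that length. The bodies were chosen by W8 liver values, so every statement on W8 liver below is a description and carries no test.

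5hmC is made from 5-methylcytosine by the Tet dioxygenases, and sits almost wholly at CpG dinucleotides. In differentiated tissues it lies mostly in the bodies and enhancers of genes, and in liver the bodies of active genes are known to carry it. The hepatocyte, the main cell of adult liver, makes plasma proteins and bile, stores glycogen, and handles lipids, amino acids and nitrogen. Fetal liver is in addition a site of blood formation, so that red cell precursors fill much of it before birth.

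The 12 libraries were made by tagging 5hmC with an azide-bearing glucose, coupling biotin to the tag and pulling down tagged fragments of genomic DNA. Whole liver and whole heart came from C57BL6/j mice at embryonic day 14 (E14, 1 library per tissue), in newborns (P1, 2 libraries per tissue) and at 8 weeks (W8, 2 libraries per tissue). The last group, embryonic stem cells (ESC, 2 libraries), is the EB5 line of strain 129/Ola, kept in medium with LIF; it is 1 line. Libraries of ESC and P1 tissue were sequenced as pairs of 75 bp reads, those of E14 and W8 tissue as single reads of 50 bp, so read format went with age and strain went with ESC. Beyond strain, the cell line and LIF, the labels name no genotype or agent that differs between groups. Whether the EB5 line carries an altered genotype was not checked. The labels do not say whether replicates were separate animals or cultures, so p-values measure only the spread between these samples. In whole tissue, fewer cells of a type and less 5hmC per cell cannot be told apart.

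Depth, recovered from the steps between low FPKM values, came to 604012 to 5761640 reads over gene bodies in 11 libraries and to 142778 in W8 heart replicate 2. At 2 FPKM a body of 5000 bp held 9.54 to 155 reads in the 11 libraries. W8 heart replicate 2 had 3.26 reads there, and 6.1% of its bodies of 5000 bp or more had no read. Results that rest on W8 heart are therefore also given without that library. The label of liver was checked against hepatocyte genes: the bodies of 49 genes for plasma proteins, coagulation and complement had a median of 1.49 FPKM in W8 liver and 0.428 FPKM in W8 heart replicate 1. For 13 Kupffer cell and macrophage markers the medians were 0.239 and 0.374 FPKM.

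Promoters of 5 genes named in the results are shown first, as examples of how promoters in the set differ in CpG. The CpG content of the bodies, on which the results turn, was not computed. Whether promoter CpG bears on the level of a body was not tested. Each runs from 250 bases before to 50 after the start of the gene, 5′ to 3′ in the direction of transcription, from RefSeq on build GRCm38.p6, with every CpG in capitals. G6pc, for the catalytic subunit of glucose-6-phosphatase, is at chr11:101367466-101367765 on the plus strand. Itih3, for an inter-alpha-trypsin inhibitor heavy chain of plasma, is at chr14:30923538-30923837 on the minus strand. Nr1h4, for the bile acid receptor FXR, is at chr10:89506609-89506908 on the minus strand. Fasn, for fatty acid synthase, is at chr11:120824498-120824797 on the minus strand. Hjurp, for the chaperone of the centromeric histone CENP-A, is at chr1:88277530-88277829 on the minus strand.
G6pc: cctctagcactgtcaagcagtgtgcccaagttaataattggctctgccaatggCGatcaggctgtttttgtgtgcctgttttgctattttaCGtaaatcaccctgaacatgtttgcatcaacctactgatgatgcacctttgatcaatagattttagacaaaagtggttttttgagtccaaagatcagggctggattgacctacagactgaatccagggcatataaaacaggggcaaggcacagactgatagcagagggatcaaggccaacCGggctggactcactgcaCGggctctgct
Itih3: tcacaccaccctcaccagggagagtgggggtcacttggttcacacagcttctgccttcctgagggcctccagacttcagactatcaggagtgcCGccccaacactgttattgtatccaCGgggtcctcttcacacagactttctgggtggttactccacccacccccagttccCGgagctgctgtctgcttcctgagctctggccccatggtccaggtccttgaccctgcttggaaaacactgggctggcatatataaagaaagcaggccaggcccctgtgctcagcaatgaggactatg
Nr1h4: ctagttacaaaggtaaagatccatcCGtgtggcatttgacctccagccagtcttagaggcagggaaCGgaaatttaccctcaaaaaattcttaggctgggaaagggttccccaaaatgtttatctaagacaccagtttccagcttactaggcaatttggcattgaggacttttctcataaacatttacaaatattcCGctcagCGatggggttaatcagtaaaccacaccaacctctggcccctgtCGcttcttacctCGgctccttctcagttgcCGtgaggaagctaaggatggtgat
Fasn: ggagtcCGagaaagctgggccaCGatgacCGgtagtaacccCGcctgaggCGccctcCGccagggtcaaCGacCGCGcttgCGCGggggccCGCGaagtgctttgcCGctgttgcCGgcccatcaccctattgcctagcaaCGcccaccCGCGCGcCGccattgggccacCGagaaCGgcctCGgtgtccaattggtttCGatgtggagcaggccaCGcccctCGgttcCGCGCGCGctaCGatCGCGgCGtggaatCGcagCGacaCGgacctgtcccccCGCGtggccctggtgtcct
Hjurp: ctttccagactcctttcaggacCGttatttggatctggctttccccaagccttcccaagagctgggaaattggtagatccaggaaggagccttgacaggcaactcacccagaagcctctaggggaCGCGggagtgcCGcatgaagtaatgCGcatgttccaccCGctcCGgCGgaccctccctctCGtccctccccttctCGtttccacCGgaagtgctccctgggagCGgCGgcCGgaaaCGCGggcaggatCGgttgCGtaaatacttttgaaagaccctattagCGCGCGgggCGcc

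The promoters of G6pc, Itih3 and Nr1h4, which are among the 10 bodies with the highest excess of W8 liver over heart and ESC, held 4, 3 and 7 CpG. Others of those 10 ranged more widely: Pzp had 4, Bhmt 8, Fmo5 10, Egfr 15 and Gpam a mean of 19.5 over 2 starts. Those of Fasn and Hjurp, which had high body levels in several other groups too, held 39 and 22. The 5 printed were chosen after their values were seen and do not stand for the set. Over the whole set no comparison of promoter sequence is given, because 504 of the 642 bodies (78.5%) matched a promoter in the table, too few for such a check. On build mm9, whose tables name no chromosome, the body of G6pc ran from 101230875 to 101239217, that of Itih3 from 31721759 to 31734946, that of Nr1h4 from 88917118 to 88994330, that of Fasn from 120667254 to 120683492 and that of Hjurp from 90155690 to 90172089. The window of 4000 bp directly upstream of each body was measured as well, and may hold the first part of the transcribed stretch. For G6pc it held 0.761 and 0.798 FPKM in W8 liver against 3.10 and 2.93 FPKM in the body. For Hjurp it held 8.43 and 8.67 FPKM against 11.2 and 10.7 FPKM in the body. In W8 liver, high signal thus stood in the body alone at G6pc and in both at Hjurp.

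The 642 bodies had a median of 2.45 and 2.36 FPKM in the W8 liver libraries, where the median of all bodies of 5000 bp or more was 0.746 and 0.760 FPKM. They came next in P1 liver, with medians of 2.27 and 2.11 FPKM. In ESC the medians were 1.62 and 1.53 FPKM, in P1 heart 1.56 and 1.46, in E14 heart 1.36, and in W8 heart 1.11 and 1.32. E14 liver had the lowest median, 0.893 FPKM, and also the narrowest spread of all bodies, with quartiles of 0.379 and 0.681 FPKM. By rank within each library, the median body of the set stood at percentile 97.3 in both W8 liver libraries, 94.1 and 94.9 in P1 liver, 90.7 in E14 liver, 91.0 in E14 heart, 87.2 and 87.5 in P1 heart, 88.8 and 87.1 in W8 heart, and 84.3 and 85.4 in ESC. The set was therefore above the middle of every library, and furthest above it in liver after birth.

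**Figure D1:**
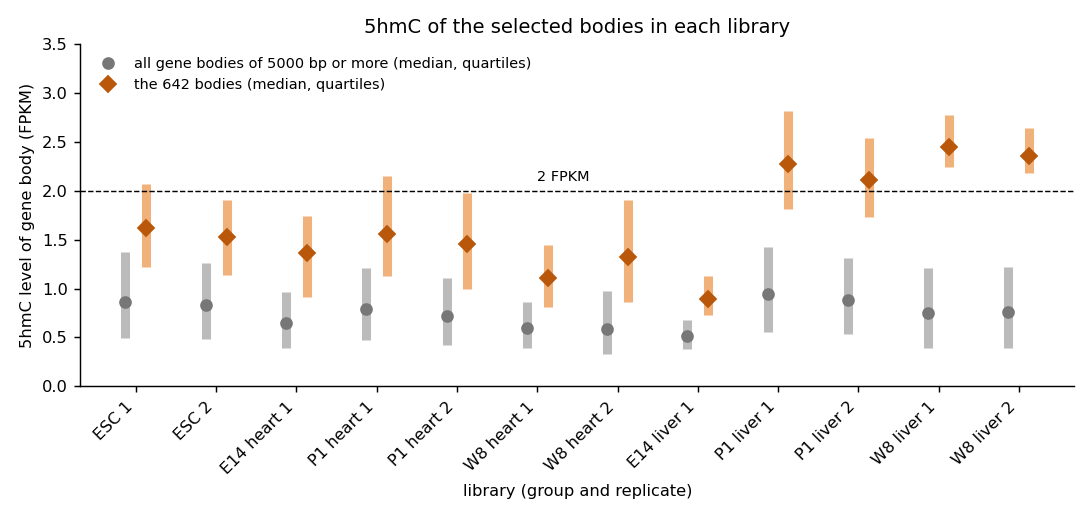
FPKM of gene bodies (vertical axis) in each of the 12 libraries (horizontal axis), with diamonds and orange bars for the median and quartiles of the 642 bodies and circles and grey bars for all 12169 bodies of 5000 bp or more. The 642 lie above all bodies in every library, and their median passes the dashed line of 2 FPKM in P1 and W8 liver, the latter by the rule that chose them.

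Just inside the threshold, by the lower W8 liver value, lay Tsr1 at 2.0006, Rab20 at 2.0007 and Pdia5 at 2.0012 FPKM. Just outside lay Gcnt7 at 1.9990 and Sf1 at 1.9997 FPKM, and Grpel2, whose lower value rounds to 2.0000. Sf1, left out, held 2.63 and 2.71 FPKM in P1 liver, and Tsr1, kept, 1.47 and 1.76 FPKM. The level of 2 FPKM thus cuts through a continuous range.

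The highest W8 liver level, 11.2 FPKM in each library, belonged to Sfi1, for a centrosomal protein. Sfi1 was higher still in ESC, at 16.7 and 15.0 FPKM, and held 6.85 FPKM in E14 liver, 4.41 and 4.09 in P1 liver and 1.54 to 4.32 in the 5 heart libraries. Hjurp followed at 11.2 and 10.7 FPKM, with 8.70 and 8.79 in P1 liver, 3.63 in E14 liver, 3.55 to 6.13 in heart and 3.27 and 3.34 in ESC. Neither gene has a function particular to liver, and both were above 1.5 FPKM in every library. Fasn, which makes palmitate, came to 5.86 and 5.00 FPKM in W8 liver, 3.55 and 2.65 in P1 liver and 0.898 in E14 liver. In ESC Fasn held 3.94 and 3.11 FPKM, more than in any heart library, where it ranged from 0.862 to 2.63.

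Nr1d1, for the clock repressor REV-ERB alpha, had 5.12 and 4.45 FPKM in W8 liver and 4.66 and 4.11 in P1 liver, and was above 2 FPKM in all 12 libraries. Pcyt2, for an enzyme of phosphatidylethanolamine synthesis, had 4.46 and 4.45 FPKM in W8 liver and 3.58 and 3.84 in P1 liver. Scd1, for the desaturase that makes oleate, had 4.33 and 3.97 FPKM in W8 liver, 2.42 and 1.55 in P1 liver and 1.21 in E14 liver, against 0.460 to 0.821 FPKM in heart. Slc38a2, for a widely used amino acid transporter, had 4.24 and 3.98 FPKM in W8 liver, but 4.38 FPKM in P1 heart replicate 2 and 4.99 in P1 liver replicate 1. The rest of the 15 highest were Apeh, Shroom1, Zbtb39, Acaa1b, AI464131, Slc25a37, Tor1a and Aacs, with means of 3.58 to 4.09 FPKM. Of the 15, Fasn and Scd1 are in the list of lipogenesis and cholesterol synthesis.

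**Figure D2:**
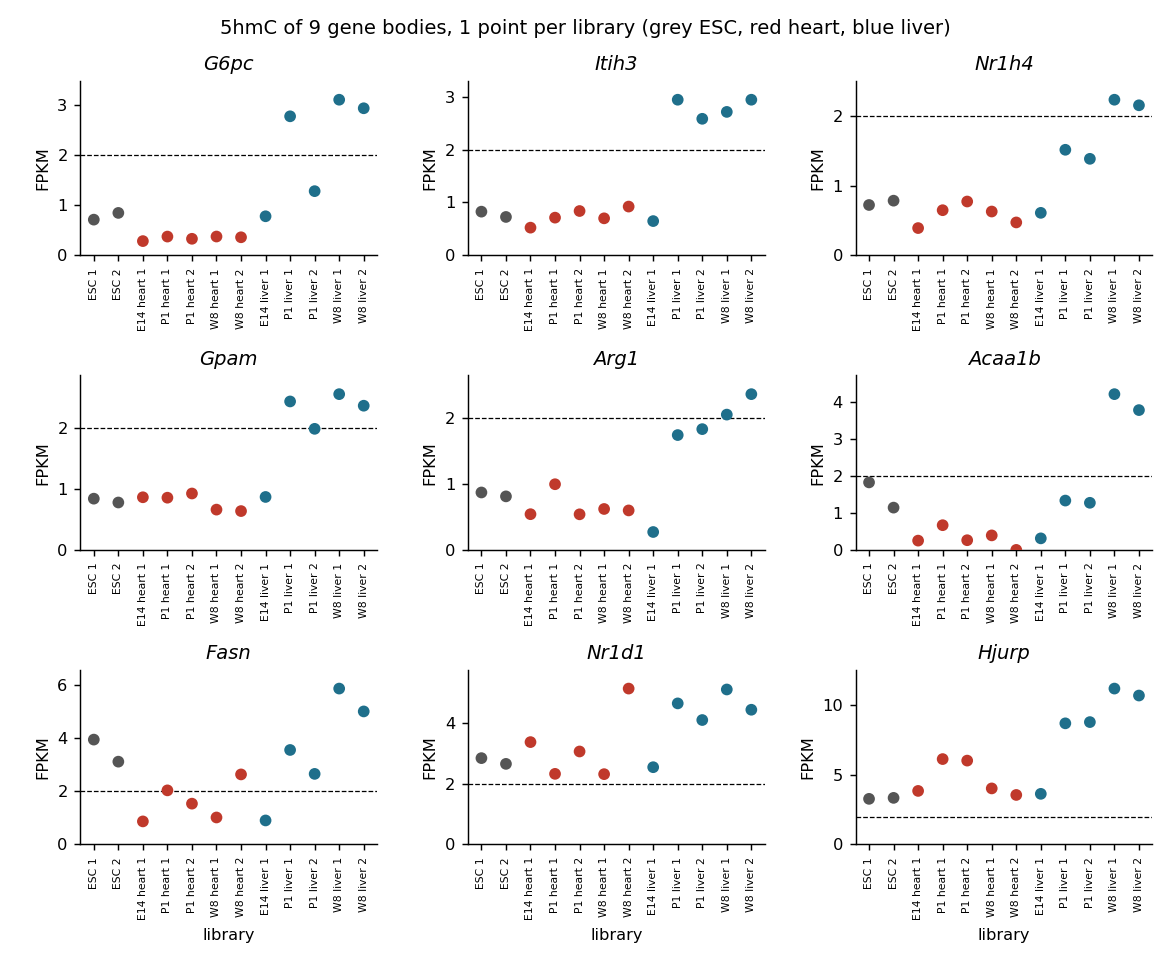
FPKM of 9 gene bodies (vertical axes, each from 0) in the 12 libraries (horizontal axes), 1 point per library, with ESC in grey, heart in red and liver in blue and 2 FPKM dashed. G6pc, Itih3, Nr1h4, Gpam, Arg1 and Acaa1b are below 2 FPKM in every heart and ESC library, whereas Fasn, Nr1d1 and Hjurp reach it outside liver.

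Level by age was read first at the fixed 2 FPKM. In P1 liver 328 of the 642 bodies (51.1%) held at least 2 FPKM in both libraries, against 5.23% of all bodies of 5000 bp or more. In E14 liver 6 did (0.935%), against 0.0657%. The ratio of the P1 mean to the W8 mean had a median of 0.891 and ran from 0.311 to 1.95, and that of E14 to W8 had a median of 0.365 and ran from 0.0779 to 1.01. Both P1 liver values lay below both W8 liver values for 325 bodies (19.6% of all bodies did so), above both for 115 (52.4% of all bodies), and overlapped them for 202. Those shares use the values that chose the set, and nothing is read from them. Read format changed between P1 and W8, so age and format cannot be told apart there; with all libraries scaled to the same median, 176 bodies reached the level in P1 liver and 75 in E14 liver.

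The highest ratio of P1 to W8 liver, 1.95, was that of Osgin1, for a growth inhibitor induced by oxidative stress, with 3.97 and 4.09 FPKM in P1 liver and 2.08 and 2.04 in W8 liver. Pip5k1c, Mvd and Nisch, with P1 to W8 ratios of 1.62, 1.51 and 1.47, were also among the highest. Mvd, for a decarboxylase of cholesterol synthesis, went from 1.41 FPKM in E14 liver to 3.22 and 3.52 in P1 liver and 2.16 and 2.30 in W8 liver. At the other end stood Lipg, for endothelial lipase, with 0.546 FPKM in E14 liver, 0.631 and 0.916 in P1 liver and 2.53 and 2.44 in W8 liver. Acaa1b, for a peroxisomal thiolase of fatty acid oxidation, had 0.311 FPKM in E14 liver, 1.33 and 1.27 in P1 liver and 4.2 and 3.77 in W8 liver. Tat, for tyrosine aminotransferase, had 0.341, then 1.14 and 0.420, then 2.29 and 2.01 FPKM at the same ages. Zfp259 and Ccdc151 were the others of the lowest 5, with P1 to W8 ratios of 0.345 and 0.373. Lipg, Acaa1b and Tat were thus under 2 FPKM in both P1 liver libraries. They were named for a low P1 to W8 ratio, and read format changed between those ages. Nothing on timing is therefore read from them.

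The 6 bodies at 2 FPKM or more in E14 liver included Sfi1, Hjurp, Nr1d1, Slc25a37 and Glrx5; Glrx5 was singled out after its values were seen. Slc25a37 (mitoferrin, which brings iron into mitochondria) held 2.65 FPKM in E14 liver, 5.52 and 4.27 in P1 liver and 3.81 and 3.66 in W8 liver. Glrx5, for a glutaredoxin of iron-sulphur cluster assembly, held 2.65 FPKM in E14 liver and 3.37 and 3.19 in W8 liver. Slc25a37 and Glrx5 both act in the use of iron by mitochondria. Across the 6 haem and iron genes in the set, among them Alad and Alas1, the median ratio of E14 to W8 liver was 0.632, against 0.365 over the 642. Of 21 erythroid and blood progenitor genes measured, 1 (Zfpm1, for the GATA1 cofactor FOG1) belonged to the set, and the median of the 21 in W8 liver was 0.390 FPKM. The part of blood cells in these levels was not tested.

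Since E14 liver had a compressed range, level was also read by rank, as standing among the 642 highest bodies of 5000 bp or more in every library of a group. By this measure 252 bodies (39.3%) were as high in P1 liver, which 3.49% of all bodies were, and 238 (37.1%) in E14 liver, against 5.28% of all bodies. In W8 liver itself, which chose the set, 543 (84.6%) met the measure in both libraries. The measure is thus not met by the whole set even there. The criteria are unlike, since 2 libraries had to agree at P1 and 1 was enough at E14; singly, the P1 liver libraries had 299 and 328 of the 642 among their highest. The 2 ages shared 177 of them, so 177 bodies (27.6%) stood as high from E14 on, 75 (11.7%) from P1 only, 61 (9.50%) at E14 but not at P1, and 329 (51.2%) at neither. Genes of the 13 lists of liver function made up 10.7% of the bodies present from E14, 28% of those from P1, and 23.4% of those at neither age. Of the 40 bodies most restricted to liver, described below, 37 stood at neither age and 3 from P1. Since those 40 were picked by low heart and ESC values against W8 liver, nothing is read from this. E14 heart, with 241 of the 642, was as high by rank as E14 liver.

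P1 liver and P1 heart, which were read alike and took no part in the choice, gave the main test. Of the 642 bodies, 37 (5.76%) were higher in P1 liver and 0 lower (limma, adjusted p under 0.05), against 1.93% higher and 0.348% lower of the 13498 bodies tested. At an unadjusted p under 0.05 the counts were 244 and 2. For these no share of all bodies is given, and nothing is read from them. The difference was above 0 at 88.6% of the 642 and at 67.4% of all bodies tested. All 642 passed the filter on low values. The median difference was 0.51 on the log2(FPKM + 0.0746) scale (quartiles 0.22 and 0.82), and that of all bodies tested 0.23. After centring every library on its median the figure for the 642 was 0.26, and 10 bodies passed. Both P1 liver values exceeded both P1 heart values at 453 bodies, and fell below both at 29; 45.3% and 18.1% of all bodies of 5000 bp or more did so.

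The count of 37 rests on each library. It was 0 without ESC replicate 1 or 2, P1 heart replicate 2, P1 liver replicate 1 or 2, or W8 liver replicate 1 or 2, and 5 without P1 heart replicate 1. It was 239, with 2 lower, without either W8 heart library, fits in which that pair no longer enters the shared estimate of spread. With the replicate number as a block it was 0.

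**Figure D3:**
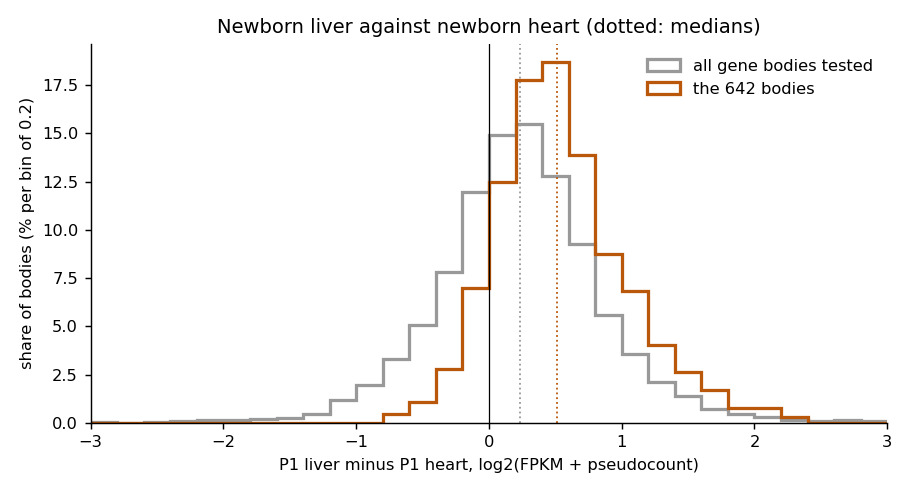
Distribution of the difference of P1 liver minus P1 heart in log2(FPKM + 0.0746) (horizontal axis) as a share of bodies per bin (vertical axis), for the 642 bodies in orange and all 13498 bodies tested in grey, with dotted lines at the medians of 0.51 and 0.23. The orange curve lies to the right of the grey one and overlaps it widely.

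Among the 37, the plasma protein genes were Itih3, F2, C4b and Serpinc1. Itih3 held 2.94 and 2.58 FPKM in P1 liver and 0.714 and 0.839 in P1 heart, a difference of 1.74 ± 0.18 (SE, limma adjusted p = 0.0289). F2, for prothrombin, held 3.69 and 2.56 against 1.21 and 0.912 FPKM, a difference of 1.49 ± 0.23 (adjusted p = 0.0441). In both genes the groups did not overlap. Serpinc1, for antithrombin, rose by 1.18 and C4b, for a complement component, by 1.34; reads of C4b may be shared with its near copy C4a. Of the 49 listed bodies of this class, 16 were in the set and 5 of these reached 2 FPKM in both P1 liver libraries. Of all 49, 10 were higher in P1 liver and 0 lower. C3, the central complement protein, had 2.32 and 2.33 FPKM in P1 liver and 0.567 and 0.666 in P1 heart, with an adjusted p of 0.0638. Proz, for the vitamin K-dependent protein Z, and Cpn1, for a plasma carboxypeptidase, stood outside the list and rose by 2.04 ± 0.36 and 1.69 ± 0.21.

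Amino acid and urea cycle enzymes gave 22 of 56 listed bodies to the set. Of the 56, 9 were higher in P1 liver and 0 lower. Ass1, which makes argininosuccinate in the urea cycle, had 2.27 and 2.61 FPKM in P1 liver, 0.875 and 0.780 in P1 heart, and a difference of 1.48 ± 0.16 (limma adjusted p = 0.0289). In W8 liver Ass1 held 3.48 and 3.22 FPKM, in E14 liver 0.691. Prodh2, of hydroxyproline breakdown, rose by 2.06 ± 0.29, with 2.06 and 1.45 against 0.309 and 0.415 FPKM. Bhmt, which remethylates homocysteine, rose by 1.17, and Gldc, of glycine cleavage, by 1.14. Arg1, the last enzyme of the urea cycle, had 0.271 FPKM in E14 liver, 1.74 and 1.83 in P1 liver and 2.05 and 2.36 in W8 liver; against P1 heart, at 0.995 and 0.539, its adjusted p was 0.0621. Hpd, of tyrosine breakdown, had 4.00 and 3.06 FPKM in P1 liver, 1.5 and 1.14 in P1 heart and an adjusted p of 0.0523. The P1 to W8 ratio of the 22 had a median of 0.732.

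Lipid genes formed the largest share of any list: 16 of 38 bodies of lipogenesis and cholesterol synthesis (42.1%) were in the set, and 9 of the 16 were at 2 FPKM in both P1 liver libraries. Of the 38, 8 were higher in P1 liver and 0 lower. Fads1, for the delta-5 desaturase, had 2.63 and 2.02 FPKM in P1 liver against 0.459 and 0.769 in P1 heart, a difference of 1.82 ± 0.24 (limma adjusted p = 0.0352). Gpam, for the acyltransferase that starts triglyceride synthesis, had 2.44 and 1.99 against 0.858 and 0.927 FPKM, a difference of 1.24 ± 0.15. Scd1 rose by 1.42 and Fads2, for the delta-6 desaturase, by 0.87. In the promoter windows of Fads1 and Gpam the differences were -0.20 and -0.07. Srebf1, for the sterol regulatory factor SREBP1, had 3.33 and 3.38 FPKM in P1 liver but also 2.66 and 2.13 in P1 heart and 2.46 and 2.30 in ESC. Lipoprotein and lipid transport genes gave 6 of 16 bodies, among them Abcg5, Lrp1 and Scarb1. None of the 6 passed the limma test of P1 liver against P1 heart; over all 16, 1 was higher in P1 liver.

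Fatty acid oxidation gave 10 of 40 bodies, with 3 of the 40 higher in P1 liver. Among the 10, Bdh1, of ketone body synthesis, had 2.78 and 1.89 FPKM in P1 liver against 0.993 and 0.888 in P1 heart, a difference of 1.22 ± 0.23 (limma adjusted p = 0.0482). Scp2, for a sterol carrier with thiolase activity, is in no list here and rose by 0.81 ± 0.14, the smallest step among the 37. Glucose and glycogen genes gave 8 of 42 bodies, with 3 of the 42 higher in P1 liver. G6pc, which releases glucose in the last step of gluconeogenesis, had 2.77 and 1.28 FPKM in P1 liver and 0.376 and 0.332 in P1 heart, the largest difference of the 37, 2.20 ± 0.32 (limma adjusted p = 0.0381). The other genes of the 37 named by rule were Slc38a3, for a glutamine transporter, which rose by 1.5, Pcyt2 by 1.13, Klhl25 by 0.92, Bcl3, for an NF-kappaB cofactor, by 0.84, and Nuak2, for a kinase of the AMPK family, by 0.82. The P1 liver replicates of G6pc differed more than 2-fold, while the heart values of G6pc lay close together. Pklr, for the pyruvate kinase of liver, had 1.74 and 1.60 FPKM in P1 liver and 0.279 and 0.436 in P1 heart, but was not among the 37.

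Transcription factors and nuclear receptors gave 16 of 46 bodies. Of the 46, 2 were higher in P1 liver and 0 lower. Hnf4a, for the nuclear receptor that maintains hepatocyte identity, had 0.666 FPKM in E14 liver, 1.88 and 1.61 in P1 liver and 2.12 and 2.04 in W8 liver, and 0.642 and 0.273 in P1 heart. Its difference at P1 was 1.86 ± 0.34 (limma adjusted p = 0.0467). Onecut1, for HNF6, had 1.88 and 1.39 FPKM in P1 liver and 0.183 and 0.359 in P1 heart, with an adjusted p of 0.0621. Rxra, the common partner of nuclear receptors, had 2.38 and 2.66 FPKM in P1 liver and 2.60 and 2.22 in P1 heart, so the groups overlapped. Nr1h4, listed with bile acid genes, had 1.52 and 1.39 FPKM in P1 liver and 0.651 and 0.776 in P1 heart, a difference of 0.96 ± 0.17 (limma adjusted p = 0.0461).

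Bile acid genes gave 3 of 26 bodies (Abcc2, Cyp27a1 and Nr1h4), although 6 of the 26 were higher in P1 liver. Abcc2, the canalicular pump for conjugates, had 2.07 and 1.69 FPKM in P1 liver, 0.628 and 0.549 in P1 heart and an adjusted p of 0.0743. Cytochrome P450 and other phase I enzymes gave 7 of 39 (Adh5, Aldh2, Aldh8a1, Cyp2u1, Ephx2, Fmo5 and Por), with 2 of the 39 higher in P1 liver. Phase II enzymes gave 1 of 16, Gstz1, with 1 of the 16 higher. Of 53 bodies whose symbol begins with Cyp, most of them P450 genes, 2 were in the set (3.77%), a share near the 5.28% of all bodies. The P1 to W8 ratio was 0.523 for Gstz1 and had a median of 0.584 over the 7 phase I genes. These were the lowest of the liver lists. The ratio divides by the W8 liver values that chose the set, so nothing is read from this order. Circadian genes gave 3 of 18 (Hlf, Nfil3 and Nr1d1), insulin and growth factor signalling 9 of 39 and haem and iron 6 of 18. Of these last 3 lists, insulin signalling had 1 body higher in P1 liver and the others 0, and none had a body lower (limma).

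Over the 13 lists of liver function together, 123 of the 443 measured bodies (27.8%) were in the set. They were 19.2% of the set and 3.64% of all bodies of 5000 bp or more. Of these 123, 16 (13%) were higher in P1 liver than P1 heart, with a median difference of 0.74; of the other 519, 21 (4.05%), with a median of 0.45. At the fixed level the order was the opposite: 51 of the 123 (41.5%) and 277 of the 519 (53.4%) reached 2 FPKM in both P1 liver libraries. The 123 stood at a median percentile of 92.9 and 93.2 in P1 liver, 86.4 in E14 liver and 63.4 in E14 heart; the 519 stood at 94.3 and 95.1, 92.0 and 92.9. In the other heart libraries and ESC the 123 stood at 73.1 to 82.1 and the 519 at 85.8 to 90.3. Both were above the middle of every library, the 123 less far outside liver.

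**Figure D4:**
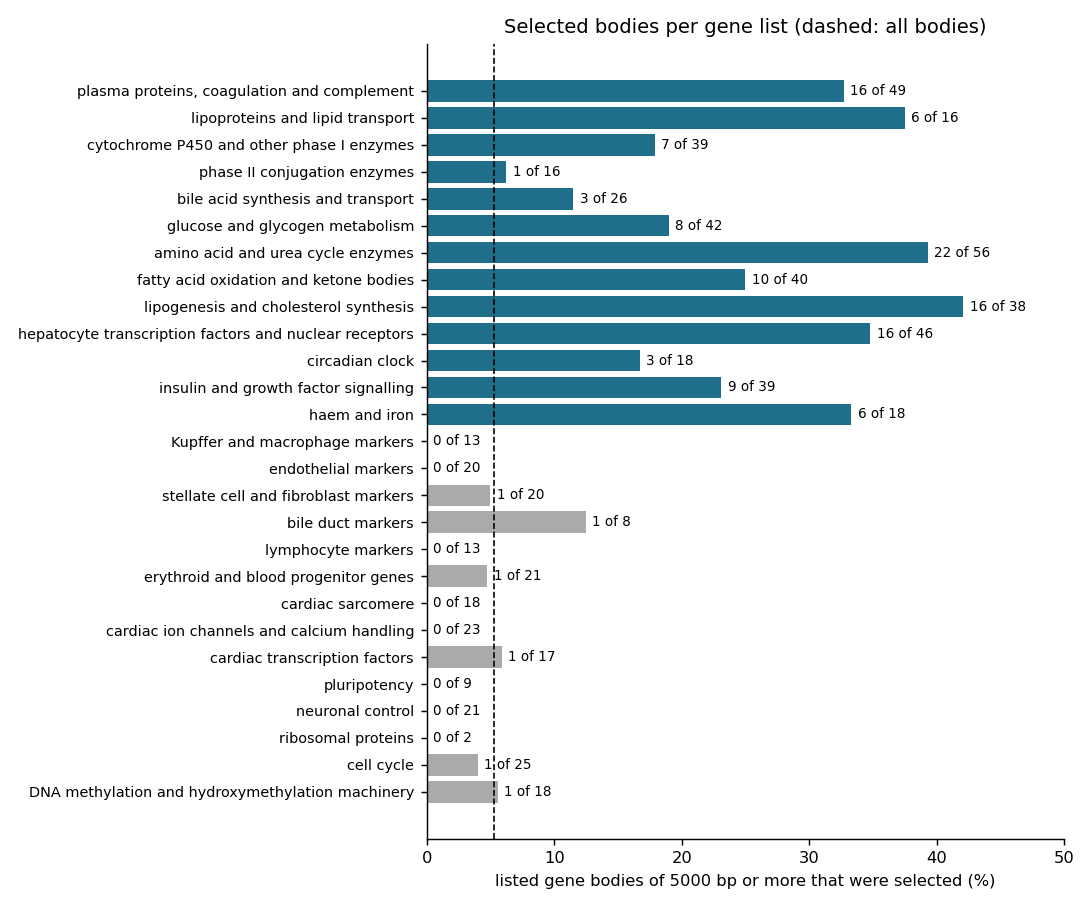
Share of the listed bodies of 5000 bp or more that belonged to the set (horizontal axis, %) for each gene list (vertical axis), with the count beside each bar, lists of liver function in blue and lists of other cell types or processes in grey. The dashed line is the 5.28% of all bodies; the 13 blue bars are above it, from 6.25% to 42.1%, and so are 3 grey bars of 1 body each, for bile duct markers (12.5%), cardiac transcription factors (5.88%) and the DNA methylation machinery (5.56%).

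The lists of other cell types and processes gave 6 bodies in all. Kupffer and macrophage (13 bodies), endothelial (20), lymphocyte (13), cardiac sarcomere (18), cardiac ion channel (23), pluripotency (9), neuronal (21) and ribosomal protein (2) lists gave 0. Fn1, for fibronectin, came from the 20 stellate cell and fibroblast markers and rose in P1 liver over P1 heart by 0.94 ± 0.17 (limma adjusted p = 0.0461), with 2.27 and 2.17 against 1.21 and 1.04 FPKM; hepatocytes make plasma fibronectin. Krt8, a keratin of bile duct and hepatocyte, came from 8 bile duct markers and had 3.70 and 2.33 FPKM in ESC. Hopx, a cardiac cofactor, came from 17 cardiac transcription factor genes and had 2.07 and 2.02 FPKM in W8 liver, 2.09 and 1.76 in P1 heart and 0.981 and 1.29 in P1 liver. Zfpm1, Ccnd1 (cyclin D1, 1 of 25 cell cycle genes) and Idh2 (1 of 18 genes of the DNA methylation machinery) were the others, each above 2 FPKM in P1 heart replicate 1 too. By symbol, 4 of 11 Klf factors (36.4%; Klf3, Klf9, Klf11 and Klf13) and 7 of 26 Zbtb genes (26.9%) were in the set, against 5.28% of all bodies. Slc transporters, with 22 of 282 (7.8%), were near that share. Many other families, such as the 38 Col genes, had 0. Klf9 held 3.49 and 3.29 FPKM in W8 liver, 0.751 in E14 liver and 2.50 in E14 heart.

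Liver restriction was read in 2 ways. By the fixed level, 281 of the 642 (43.8%) were under 2 FPKM in every heart and ESC library, which 86.6% of all bodies were; without W8 heart replicate 2 the count was 319. The other 361 reached 2 FPKM in some heart or ESC library, 289 of them in heart and 216 in ESC. At 161 of the 642 some heart or ESC value exceeded both W8 liver values. For the counts of 289, 216 and 161 no share of all bodies is given, and nothing is read from them. By fold, 40 bodies (6.23%) had a lower W8 liver value at least 2 times the highest heart or ESC value, against 1.62% of all bodies; without W8 heart replicate 2 there were 50. At 1.5-fold there were 140 and at 3-fold 3. By the fixed level, 361 bodies of the set therefore reached 2 FPKM in at least 1 heart or ESC library too. For 38 of them this was W8 heart replicate 2 alone, where 2 FPKM over 5000 bp is 3.26 reads.

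The 3 bodies past 3-fold were G6pc (3.46), Pzp (3.4) and Egfr (3.38). G6pc did not exceed 0.847 FPKM outside liver. Pzp, for a plasma protease inhibitor of the alpha-macroglobulin family, had 2.46 and 2.68 FPKM in W8 liver, 1.45 and 1.54 in P1 liver, 0.391 in E14 liver and 0.227 to 0.723 elsewhere. Egfr, for the epidermal growth factor receptor, had 2.05 and 2.03 FPKM over a body of 163948 bp, 1.04 and 0.992 in P1 liver, 0.401 in E14 liver and 0.402 to 0.602 elsewhere. Mosc1, for an enzyme of the mitochondrial amidoxime-reducing complex, Itih3, Nr1h4, Fmo5, C4b, Gpam and Bhmt followed with ratios of 2.55 to 2.97. Mosc1 also rose in P1 liver over P1 heart, by 1.51 ± 0.23 (limma adjusted p = 0.0415). Fmo5, a flavin monooxygenase, had 2.21 and 2.16 FPKM in W8 liver and 1.63 and 0.999 in P1 liver. Of the 40, 24 (60%) were in a list of liver function, from plasma proteins (7: Ambp, C3, C4b, F10, Hrg, Itih3 and Plg) to the urea cycle (Arg1 and Slc25a15). Liver genes were common past this fold outside the set too: among all 197 such bodies, 88 were in a list of liver function.

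In E14 liver these 40 stood at a median percentile of 61.2 and a median of 0.578 FPKM, and in P1 liver at percentiles 84.7 and 83.6 and at 1.73 and 1.54 FPKM. Their heart and ESC values took part in the choice: the medians there lay between percentiles 36.4 and 60.7. Their P1 to W8 ratio had a median of 0.664, against 0.891 over the 642. The 40 ranked below the whole set at both earlier ages of liver. They were picked by low heart and ESC values against W8 liver, and the ratio divides by W8 liver. Nothing is therefore read from these ranks or from the ratio.

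**Figure D5:**
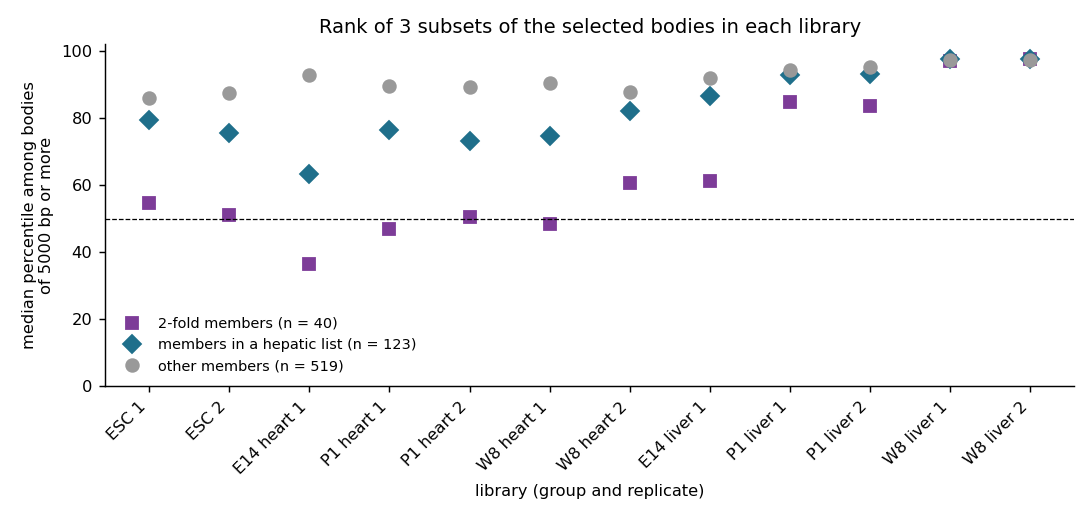
Median percentile among the 12169 bodies of 5000 bp or more (vertical axis) in each library (horizontal axis) for the 40 bodies at least 2-fold above heart and ESC (squares), the 123 in a list of liver function (diamonds) and the 519 in none of those lists (circles); the 40 overlap the other 2 groups. In E14 liver the medians are 61.2, 86.4 and 92.0, and in W8 liver, which chose the bodies, all are near 97.

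In heart the set was lower. At 2 FPKM in every library of a group stood 135 bodies in P1 heart (21.0%; 2.49% of all bodies), 78 in E14 heart (12.1%; 1.08%) and 21 in W8 heart (3.27%; 0.230%), and in ESC 112 (17.4%; 3.67%). Between W8 and P1 heart, limma called 0 of the 642 higher and 0 lower, against 0.00741% of all bodies in each direction. At an unadjusted p under 0.05 there were 3 and 201, for which no share of all bodies is given. The difference was above 0 at 24.3% of the 642 and at 25.6% of all bodies tested. The median difference of the 642 was -0.33, that of all bodies -0.30, so the set moved much as all bodies did. Read format goes with age here. Without W8 heart replicate 1, which leaves the shallow library alone, 71 were called higher and 174 lower; without replicate 2 the counts were 0 and 0. Akt1, for a kinase of insulin signalling, was a member with more signal in heart: it had 3.36 and 3.90 FPKM in P1 heart, 2.53 in W8 heart replicate 1 and 2.22 and 2.04 in W8 liver.

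P1 liver was compared with ESC as well; the comparison shares libraries with those above, and strain goes with it. Of the 642, 125 were higher in P1 liver and 4 lower (limma), against 10.4% and 5.05% of all bodies. The median difference was 0.47, and over all bodies 0.10. Slc25a37, a gene of chromosome 14, rose by 3.04, from 0.529 and 0.520 FPKM in ESC. The limit given below for chromosome 14 therefore holds for it. The 4 lower were Sfi1, by -1.88, Krt8, by -1.41, Rundc3a and Ccdc151, the last a gene of motile cilia; Rundc3a was named after its values were seen. The count of 125 was 0 without ESC replicate 1 or P1 liver replicate 1, 1 without ESC replicate 2, 25 without P1 liver replicate 2, 41 without either W8 liver library, and 259 and 255 without W8 heart replicates 1 and 2; that of 4 ran from 0 to 11. Of the 125, 17 lay on chromosome 14 (RefSeq), which held 25 of the 642; the median difference of those 25 was 1.06, and on the other autosomes it was 0.29 to 0.73. Over all bodies of 5000 bp or more on chromosome 14 it was 0.62. The copy number of chromosome 14 in the ESC line was not tested, and a difference in copy number and one in 5hmC cannot be told apart in these values.

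Between P1 heart and ESC, 39 of the 642 were higher and 31 lower (limma), against 5.59% and 7.11% of all bodies, with median differences of -0.05 and -0.13. After centring the counts were 88 and 19. They were 101 and 115 without either W8 heart library, 0 to 7 and 0 to 13 without any 1 of the ESC, P1 heart or W8 liver libraries, and 27 and 19 without either P1 liver library. Slc25a37 rose by 2.24, with the limit given above for chromosome 14, and Sfi1 was lower by -2.80. The shares of the set that passed, 6.07% higher and 4.83% lower, were near those of all bodies.

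The set was short. Its bodies had a median length of 16080 bp (5033 to 252981), against 29289 bp for all bodies of 5000 bp or more. Of bodies of 5000 to 10000 bp, 11.4% belonged to it, and of those of 200000 bp or more 0.494%. The median W8 liver level of all bodies fell with length as well, from 0.946 to 0.3 FPKM over the same bins. The 40 most restricted bodies had a median of 23508 bp. In the promoter windows the set had medians of 0.984 and 0.988 FPKM in W8 liver against 0.648 and 0.679 for all bodies, and 1.57 and 1.4 against 1.05 and 0.913 in P1 liver. Outside liver they were 0.868 and 0.82 against 0.62 and 0.631 in ESC, and 0.758 against 0.569 in E14 heart. In W8 heart replicate 2 they were close, at 0.778 against 0.756. The excess of the set thus extended to the promoter window, and was not confined to liver there. In liver after birth its ratio was smaller than in the bodies, whose W8 liver level chose the set. In the promoter windows, 0 of the 642 passed the test of P1 liver against P1 heart.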

How the data were processed

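5hmC pull-down libraries of mouse ESC, heart and liver were analysed from 1 table per library. The build was mm9 and the aligner Bowtie2, per the submitters' processing notes. Which version was run, and what counted the reads, is not given in the sources used here. The deposited values are FPKM, per the file headers, 1 for the promoter window and 1 for the body of each of 13581 genes. Genes without coordinates (23) or without a body of positive length (9) were dropped, leaving 13549. No unenriched library was used here, so a level is relative and moves with CpG content and ease of sequencing.

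Small promoter FPKM came in steps of 1 read (100% whole, with a tolerance of 0.01 reads), which gave each library's depth. Single-end tables had 2 step sizes in a ratio near 1.03, so their depth is approximate.

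Tests used log2(FPKM + 0.0746) and bodies whose mean reached 0.0746, a pseudocount equal to the median of the values above 0 divided by 10. This scale understates changes of low genes. The model, in limma 3.58.1 (R 4.3.3), had a mean for each of 7 groups over 12 libraries, a variance trend and 5 residual degrees of freedom. P-values of 4 comparisons were adjusted by Benjamini and Hochberg at 0.05 over 13498 bodies each, and sentences on these tests use that adjustment. The script was tested on simulated data.

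The bodies, gene lists and tests were chosen with earlier results of these data known. Named were the 15 highest in W8 liver, the 10 largest and 5 smallest called differences of P1 liver minus P1 heart, the 10 most above heart and ESC, the 5 highest and 5 lowest P1 to W8 ratios, genes of the liver lists by role, the 3 on each side of the threshold, and members of the lists of other tissues. A few genes that this rule names are not reported here. Gene symbols are those of the tables, and list genes were also matched through RefSeq synonyms. RefSeq (GRCm38.p6) gave chromosomes for 639 of the 642 bodies. Alternatives were other pseudocounts, no filter, median centring, no variance trend, the 2 groups alone, a replicate block, promoter windows, other levels and folds, and leaving out each replicate. No single-gene copy number or input correction was made.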

Additional observations from a re-analysis of the deposited data

How the results depend on the processing

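Counts of bodies past the threshold (limma) depended on the processing more than directions did. P1 liver over P1 heart (37) became 73 and 24 with the pseudocount at the median divided by 2 and by 100, 10 after centring, 0 in the 2 groups alone, 0 in promoter windows and, leaving out single replicates, 0 to 239, with 0 to 2 lower. P1 liver over ESC (125 higher, 4 lower) gave 6 and 1 in promoter windows, 7 lower after centring and, leaving out single replicates, 0 to 259 and 0 to 11. P1 heart over ESC (39 and 31) gave 88 and 19 after centring, 0 and 1 in promoter windows and 0 to 101 and 0 to 115 without single replicates. W8 heart against P1 heart (0 and 0) gave 0 to 71 and 0 to 174. The causes were not tested. Of the genes named, Fads1 (-0.20) and Gpam (-0.07) changed sign in the promoter window, both far from the threshold there, and no other named gene that passed the test changed sign under the alternatives run. The rule gave 1693 bodies at 1.5 FPKM and 58 at 3 FPKM. With libraries scaled to the same median, 176 (from 328) were at 2 FPKM in P1 liver and 75 (from 6) in E14 liver, where 238 stood by rank. The set 2-fold above heart and ESC (40) had 140 at 1.5-fold and 3 at 3-fold.

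Same-numbered replicates did not deviate together: the correlations of their deviations across bodies were 0.0198, 0.0269, -0.0111 and 0.0202 in the 4 comparisons. With 2 libraries per group this cannot decide whether the numbers pair the samples, and the labels do not say. The main test used no pairing. With a replicate block, P1 liver over P1 heart gave 0 calls, P1 liver below ESC 1 and P1 heart below ESC 18. Leaving out E14 liver, which is 1 library, could give no value. Depth limits W8 heart replicate 2, in which 2 FPKM over 5000 bp is 3.26 reads.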

Other observations

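None of the 642 bodies lay on chromosome X by RefSeq, where 375 bodies of 5000 bp or more were measured. The median body there held 0.225 and 0.246 FPKM in the W8 liver libraries, while chromosome medians of the autosomes ran from 0.646 to 0.902 FPKM. The share of bodies in the set ran from 3.51% on chromosome 18 to 8.47% on chromosome 10. On chromosome 14, 15 of the 25 bodies of the set were under 1 FPKM in both ESC libraries. They included Ctsb, for cathepsin B (0.370 and 0.341 FPKM in ESC, 2.83 and 2.04 in P1 liver), Itm2b (0.660 and 0.684, and 2.59 and 3.66) and Entpd4 (0.671 and 0.682, and 2.99 and 2.80), named after their values were seen. ESC is 1 line of another strain, so line, strain and cell type cannot be told apart.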
